A study of Sus scrofa with 5 samples.

Results

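The earliest biopsy of a pig kidney xenograft in a human recipient, taken at 12 h, was compared with untransplanted control kidney across the genes of the pig genome. The comparison used 3 of the 5 libraries of the series, namely the xenograft library at 12 h and control replicates 1 and 2, labelled 0 h. Of 15235 gene symbols counted over the pig genome, 12857 had enough counts to be tested. The 2 later xenograft libraries, at 24 and 48 h, served to show what the first biopsy alone had.

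Every library was made from total RNA of a homogenised kidney core biopsy after depletion of ribosomal RNA. One label names dissociated kidney cells instead, and the protocol was followed here. The groups differed by the label "xenotransplantation" against "Control" and by time. The labels give a single biopsy at each xenograft time, all from the second kidney of the study, and do not say whether the control replicates came from separate animals. The pigs' strain, genotype and age and the treatment of the recipient are not given in the sources used here. All p-values therefore measure the spread between these libraries only. Markers of the kidney were present in every library, with 3354, 3117 and 470.1 CPM (TMM-scaled counts relative to library size) of the proximal tubule receptor gene LRP2 and 2664, 2543 and 5126 CPM of the thick ascending limb gene UMOD in control 1, control 2 and the 12 h biopsy. Markers of other tissues were low but not all absent. The adipose gene ADIPOQ, the red cell gene ALAS2 and the thymus gene RAG1 were under 0.1 CPM in these 3 libraries, while the adipose gene PLIN1 was at 0.552, 0.768 and 0.152 CPM, the haemoglobin gene HBB at 0.201, 0.249 and 1.52 CPM, the thymus gene DNTT at 0.753, 0.825 and 0.0553 CPM and the muscle gene CKM at 1.32, 1.34 and 0.663 CPM.

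Pig-table totals were 65919506 and 71108823 counts in the controls and 63238072 at 12 h, and 66169176 and 56129926 at 24 and 48 h. Between the controls the chi-square was 218 times its degrees of freedom over 12327 genes, far above sampling noise. Mitochondrially encoded genes took 21.9% and 33.4% of counts in controls 1 and 2 against 12% at 12 h, with 95% Wilson intervals no wider than 0.022 percentage points that cover counting error only. All levels are CPM on this scale, in which the TMM method adjusts for differences in library composition by taking most genes as unchanged.

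A kidney that is removed, cooled and reperfused meets a shortage of oxygen followed by its sudden return. The proximal tubule is the segment hit hardest, since it burns fatty acids to drive reabsorption and has little capacity for glycolysis. Injured tubule cells lose their transporters and metabolic enzymes and turn on secreted proteins, keratins and repair genes. In a xenograft the endothelium is at the same time the first surface that the recipient's blood, antibodies, complement and leukocytes meet.

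The question of the comparison is how the graft differed from untransplanted kidney at its first biopsy. In the quasi-likelihood test of edgeR, with p-values adjusted by the Benjamini-Hochberg method and a threshold of 0.05, 3622 genes (28.2%) were higher at 12 h and 3576 (27.8%) were lower, together 56.0% of the genes tested. The median log2 fold change over all genes was 0.01, and it was 0.01 against control 1 and 0.02 against control 2. TMM scaling draws this median toward 0 by taking most genes as unchanged, so these medians do not test the scale. Of the called genes, 1495 were more than 2-fold higher and 1747 more than 2-fold lower. Measured against each control separately, 45.9% of genes lay above both and 44.2% below both. On log2(CPM + 0.1), 1229 genes (9.56%) were at least 2-fold, 308 (2.40%) at least 4-fold and 93 (0.723%) at least 8-fold above both controls. Below both controls the counts were 1461 (11.4%), 304 (2.36%) and 70 (0.544%).

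This test takes its spread from the 2 controls, and assumes that a repeat of the 12 h biopsy would vary as they did. Stricter fits treated 24 and 48 h as 1 group, so that this pair added to the spread (called the joined fit below), or did so with 1 control left out. With a control left out, the 24 and 48 h pair was the only source of spread. A gene that changed between 24 and 48 h could then fail even where the controls lay close together. Such a failure therefore does not measure how far a result depends on a control. The joined fit called 2467 genes higher and 2503 lower. Without control 1 the counts were 974 and 1130 and without control 2 they were 756 and 849, and 702 of the higher and 798 of the lower genes were called with either control left out. DESeq2's Wald test called 2437 and 2522. Adjusted p-values and log2 fold changes with their standard errors (SE, after "±") come from the joined fit of edgeR unless another fit is named, and counts of list members are those of the first fit unless a control is said to be left out. Over all genes the first fit called 28.2% higher and 27.8% lower, and every list count is read against these shares.

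**Figure D1:**
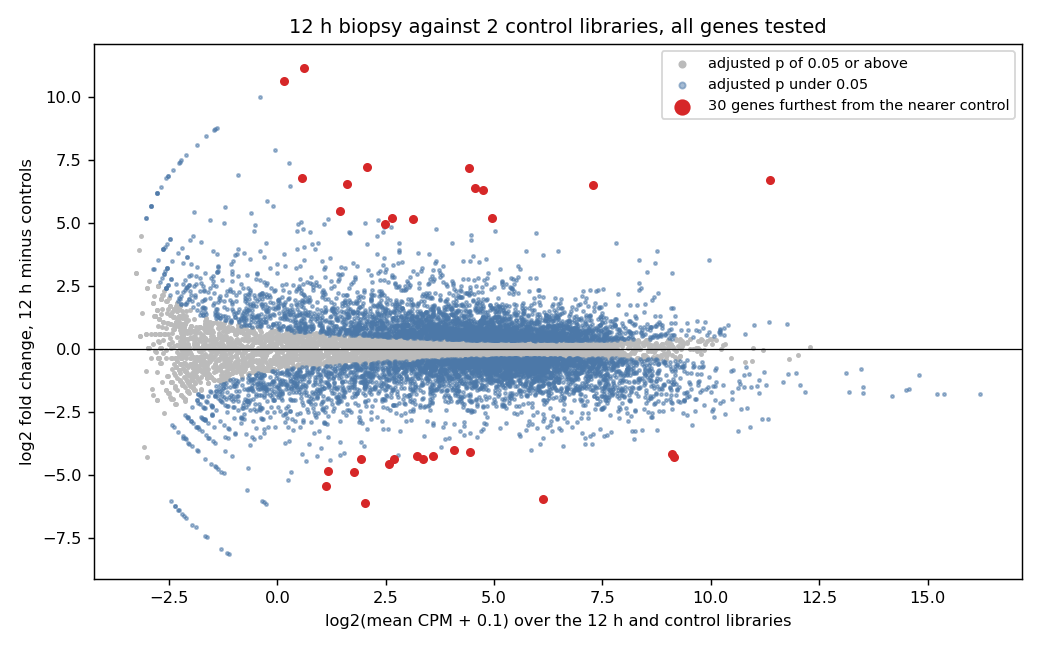
The log2 fold change of the 12 h biopsy against the 2 controls (vertical axis) is plotted against log2(mean CPM + 0.1) over the 12 h and control libraries for 12857 genes. Blue points are the 7198 genes with an adjusted p under 0.05 in the first fit, and grey points are the rest. Red points are the 30 genes furthest from the nearer control. The cloud is centred on 0, with a median of 0.01.

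Ranked by log2(CPM + 0.1) against the nearer control, SPP1, LBP, MMP7 and S100A2 stood highest. SPP1, which encodes osteopontin, a secreted protein of injured tubules, was at 75.5 and 74.1 CPM in controls 1 and 2 and at 7823 CPM at 12 h. It was 104-fold above control 1 and 106-fold above control 2 (log2 fold change 6.71 ± 0.30, 1 library against 2, adjusted p = 0.000124). The 2 controls lay close together and the 12 h value was above both later biopsies, at 4251 and 4566 CPM.

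MMP7, a matrix metalloproteinase made by injured tubular epithelium, went from 5.31 and 4.82 CPM to 459.8 CPM, 86.6-fold and 95.5-fold above the controls (log2 6.50 ± 0.17, adjusted p = 2.33e-05). S100A2, a calcium-binding protein gene of stressed epithelia, went from 0.887 and 0.768 CPM to 69 CPM, or 77.7-fold and 89.8-fold (log2 6.37 ± 0.16, adjusted p = 2.33e-05). LBP, whose product binds bacterial lipopolysaccharide and is a classical acute phase protein, was at 0.519 and 0.345 CPM in the controls and 62.7 CPM at 12 h. It was at least 121-fold above either control, and unlike SPP1 it was higher still at 48 h, at 143 CPM.

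FOSL1, a partner of JUN in the AP-1 transcription factor, was near absence in the controls at 0.117 and 0.0384 CPM and reached 12.2 CPM at 12 h (log2 7.22 ± 0.48, adjusted p = 0.000244). ADAMTS4, a protease of the extracellular matrix, rose from 0.854 and 0.499 to 24.6 CPM, and STC2, encoding the secreted glycoprotein stanniocalcin 2, from 0.469 and 0.518 to 15.4 CPM. F13A1, the A subunit of coagulation factor XIII, rose from 2.26 and 2.53 to 87.8 CPM. For these 4 genes the 12 h biopsy held the highest value of the 5 libraries, with ADAMTS4 at 11.5 and 7.04 CPM and F13A1 at 66.7 and 22.3 CPM at 24 and 48 h.

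Further genes far above the nearer control were the chemokine gene CCL27 (at least 86-fold) and the neuropeptide precursor gene VGF. VGF had 2 counts in each control, under the floor of 3 counts used below, so its folds of 122 and 107 are uncertain. The metal transporter gene SLC11A1 of phagocytes was at least 41.2-fold higher, and the glycosyltransferase gene GALNT15 at least 32.8-fold. SLC11A1 had 3, 1 and 344 human-table counts in control 1, control 2 and the 12 h biopsy, against 11, 8 and 549 in the pig table. The part of recipient RNA in its rise was not tested. APOA4, an apolipoprotein gene, was 80.8-fold and 75.7-fold above the controls with an adjusted p of 0.0126. It was at 24.1 and 3.75 CPM at 24 and 48 h, the pair that sets the spread once a control is left out. It was not called without control 1 or without control 2. ARG1, encoding arginase 1, had 0 counts in both controls and 219 counts at 12 h, at least 52.6-fold above a floor of 3 counts per library. RPL10L had 0 control counts and was at least 75.1-fold higher, but it is a close copy of another ribosomal protein gene, and the human table held 4341 and 5149 counts of its symbol in the controls, so its value is uncertain.

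Genes of transport and metabolism were among those that fell furthest. ETNPPL, an enzyme gene that breaks down phosphoethanolamine, fell from 103 and 105 CPM to 1.7 CPM, 60.7-fold and 61.9-fold below the controls (log2 -5.94 ± 0.95, adjusted p = 0.00928). It stood at 5.76 and 19.4 CPM at 24 and 48 h, so its lowest value was the first. SLC7A8, an amino acid exchanger of the proximal tubule's basolateral membrane, fell from 855 and 805 to 42.5 CPM, or 20.1-fold and 19-fold (log2 -4.29 ± 0.28, adjusted p = 0.000244).

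NOX4, an NADPH oxidase abundant in kidney tubules, fell from 841 and 773 to 45.2 CPM, 18.6-fold and 17.1-fold below the controls (adjusted p = 0.00018). NR1I3, a nuclear receptor that controls drug metabolism, went from 14.6 and 15.4 to 0.719 CPM, and CREB3L3, a transcription factor of lipid metabolism, from 8.74 and 9.88 to 0.456 CPM. PLPPR1, a membrane protein gene of the phospholipid phosphatase family, went from 25 and 23.8 to 1.52 CPM, and the transporter gene SLC23A3 from 30.6 and 32.6 to 1.87 CPM. The 12 h value was the lowest of the 5 libraries in each of these genes.

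RNF212B, SRCIN1, SYNDIG1 and CFAP74 also fell, each by at least 16.3-fold against either control. CYP1A1, a detoxifying cytochrome P450 gene, fell from 2.85 and 3.32 to 0.0691 CPM, but did not pass without control 2 (adjusted p = 0.0511). APLNR, the apelin receptor gene, and CX3CR1, the fractalkine receptor gene, were 18-fold and 27.6-fold or more below each control. Neither passed without control 1 (adjusted p = 0.0739 and 0.0639) or control 2 (0.0778 and 0.0742). The microRNA gene ssc-mir-10390 was at 3.9, 7.83 and 0.0829 CPM in control 1, control 2 and the 12 h biopsy but at 3.2 CPM at 24 h, and it passed neither the joined fit (adjusted p = 0.11) nor the fits without a control (0.163 and 0.22).

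**Figure D2:**
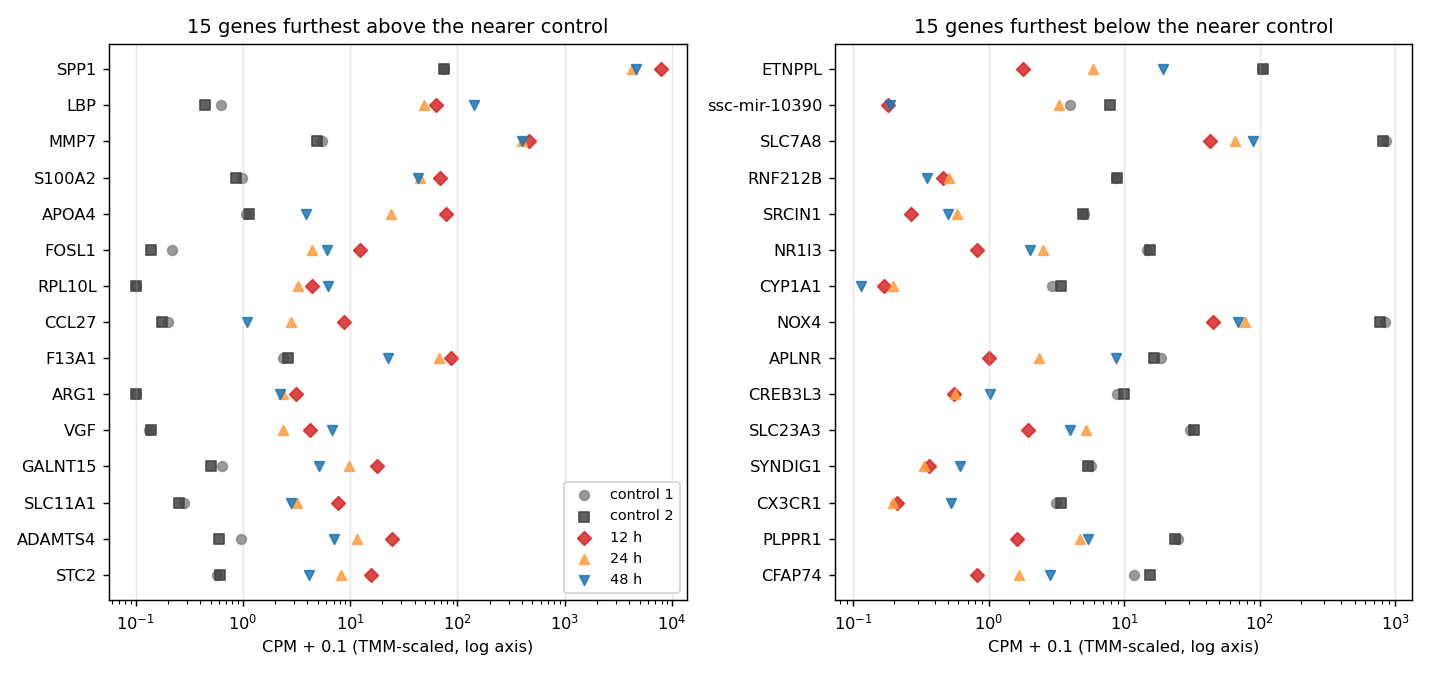
CPM + 0.1 on a log axis is given in each of the 5 libraries for the 15 genes furthest above (left) and the 15 furthest below (right) the nearer control, 1 point per library. Grey symbols are the controls and red diamonds the 12 h biopsy; SPP1, for example, lies at 75.5 and 74.1 CPM in the controls and 7823 CPM at 12 h, and ETNPPL at 103 and 105 against 1.7 CPM.

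Genes of nephron segments did not fall alike. Of 22 proximal tubule genes tested, 21 fell and 0 rose, against 27.8% and 28.2% of all genes. Their median log2 fold change was -2.03, against 0.01 for all genes. All 22 lay below both controls, against 44.2% of all genes. Without control 1 or control 2, 15 and 12 were called lower. In bulk tissue, fewer proximal tubule cells and less RNA per cell cannot be told apart.

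LRP2, encoding megalin, which takes up filtered protein, was 7.13-fold and 6.63-fold below controls 1 and 2 (log2 -2.78 ± 0.30, adjusted p = 0.000886). G6PC1, the last enzyme of gluconeogenesis, fell from 2328 and 2157 to 234 CPM, and SLC5A12, a lactate transporter, from 2774 and 2694 to 322 CPM. LRP2 was higher again at 24 and 48 h, at 1055 and 872 CPM, while SLC5A12 went on to 211 and 144 CPM. The 1 member that was not called was HNF4A, the transcription factor that sets proximal tubule identity, at 593, 639.7 and 499 CPM; its call was noticed after the values were seen.

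The list of thick ascending limb and distal tubule genes had 5 of 13 higher and 7 lower, against 28.2% and 27.8% of all genes, and a median of -0.41. SLC12A3, the thiazide-sensitive cotransporter of the distal convoluted tubule, fell from 164 and 192 to 26.7 CPM (log2 -2.74 ± 0.32, adjusted p = 0.00167). CLDN10, a claudin of sodium-permeable junctions, fell from 192 and 209 to 65.4 CPM. CLDN16, a claudin through which magnesium and calcium are reabsorbed, rose from 26 and 21.1 to 65.2 CPM. EGF, made in this part of the nephron, was 2.61-fold and 2.74-fold below the controls, but did not pass without control 1 (adjusted p = 0.0803) or control 2 (0.0965). Without control 1 or 2, 2 members were called in each direction.

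Of 15 collecting duct genes 9 were higher and 2 lower, against 28.2% and 27.8% of all genes, with a median of 0.58. AQP3, a water channel of the principal cell, rose from 69.6 and 70.9 to 239 CPM (log2 1.77 ± 0.16, adjusted p = 0.000531). FXYD4, a regulator of the sodium pump, rose from 3.87 and 2.13 to 60.3 CPM but did not pass without control 1 (adjusted p = 0.0702) or control 2 (0.1). The sodium channel gene SCNN1A and the anion exchanger gene SLC26A4 were at least 2.08-fold above each control and did not pass without control 1 (adjusted p = 0.0906 and 0.0635) or control 2 (0.0922 and 0.0983). Fewer members were called higher with a control left out, in fits that also called fewer of all genes.

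Podocytes, the filter cells of the glomerulus, gave 7 of 10 genes lower and 1 higher, with a median of -1.59. Over all genes 27.8% were lower and 28.2% higher. NPHS1, encoding nephrin of the slit diaphragm, fell from 22.5 and 18.3 to 4.71 CPM (log2 -2.11 ± 0.25, adjusted p = 0.00135). PTPRO, a phosphatase of the podocyte surface, fell from 63.2 and 45 to 13.4 CPM, and WT1, the transcription factor of podocyte identity, from 28.1 and 24.4 to 8.91 CPM. The scaffold gene MAGI2 fell 3.66-fold and 2.97-fold, but not with control 1 left out (adjusted p = 0.112) or control 2 (0.0878). With control 1 or 2 left out, 4 and 5 members were called lower.

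Genes of energy metabolism were lower as well, where 27.8% of all genes were called lower and 28.2% higher. Fatty acid oxidation genes were lower in 17 of 22 and higher in 1, with a median of -1.15, and 9 were called lower with either control left out. EHHADH, a peroxisomal enzyme of fatty acid breakdown, fell from 1706 and 1476 to 359 CPM (log2 -2.15 ± 0.28, adjusted p = 0.00173). HADH, a mitochondrial enzyme of the same pathway, fell from 837 and 937 to 214 CPM and ACADL from 333 and 332 to 117 CPM. CPT1A, which admits fatty acids to mitochondria, was the member that rose, at 86.5, 85.5 and 155 CPM, and it did not pass without control 1 (adjusted p = 0.0737) or control 2 (0.0851).

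All 13 mitochondrially encoded genes fell, with a median of -1.72, but their fold depended on the control. The median was -1.17 against control 1 and -2.13 against control 2, the library with 33.4% mitochondrial counts. ND6 was at 699.5, 1113 and 158 CPM (log2 -2.52 ± 0.48), and ND5 at 17647, 31314 and 6714 CPM. In the joined fit 7 were called, 1 without control 1 and 0 without control 2. ND6 passed without control 1 (adjusted p = 0.0342) and not without control 2 (0.0578), and ND5 passed neither (0.0803 and 0.178).

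The respiratory chain is also built from nuclear genes, with 15 of 26 lower, 0 higher and a median of -0.47. Of the 26, 24 were below both controls and 23 below both later biopsies, against 44.2% and 38.2% of all genes. COX7B, a subunit of cytochrome oxidase, fell from 541 and 642 to 202 CPM (log2 -1.55 ± 0.21, adjusted p = 0.00222). SDHC and SDHB, of succinate dehydrogenase, and NDUFB3, of complex I, were at least 1.76-fold below each control. SDHC and SDHB did not pass without control 1 (adjusted p = 0.0653 and 0.064) or control 2 (0.101 and 0.0962), nor NDUFB3 without control 2 (0.0726). Once control 1 or 2 was removed, 2 and 1 members were called.

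**Figure D3:**
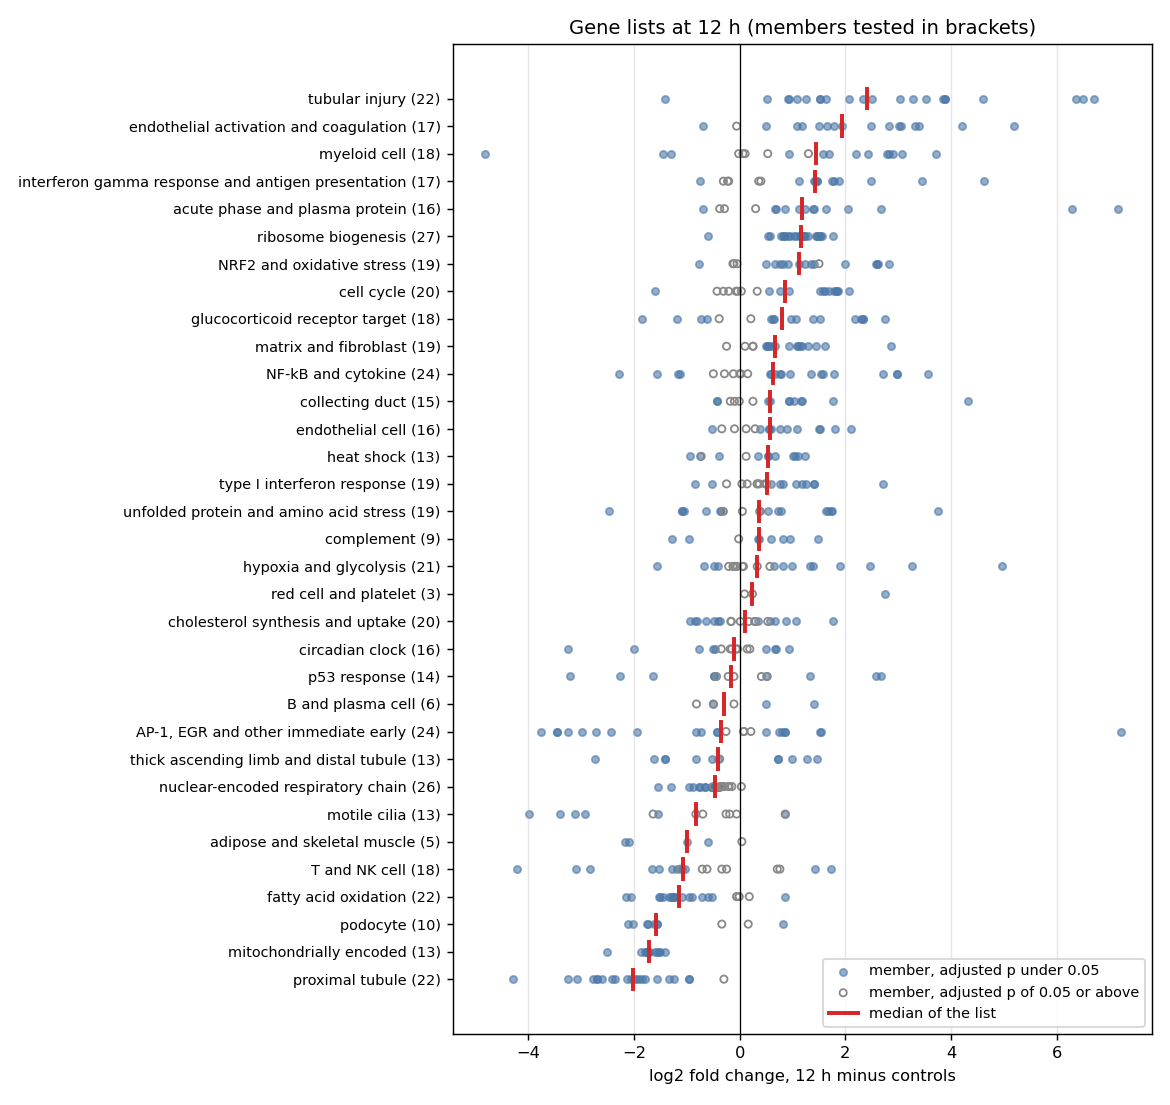
Each point is a gene of 1 of 33 gene lists, placed at its log2 fold change at 12 h against the controls. Filled points had an adjusted p under 0.05 in the first fit, and the red bar is the median of the list. The lists are ordered by median, from -2.03 for proximal tubule to 2.42 for tubular injury.

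Tubular injury genes rose in 21 of 22 members, with a median of 2.42, and 15 and 14 were called higher without control 1 or 2. Over all genes 28.2% rose and 27.8% fell. The list holds SPP1, MMP7 and S100A2, described above. TIMP1, an inhibitor of metalloproteinases, rose from 8.12 and 6.16 to 174 CPM (log2 4.61 ± 0.18, adjusted p = 0.000103). It was lower at 24 and 48 h, at 76.6 and 75.4 CPM. The member that fell was PROM1, a surface protein gene of tubular progenitor-like cells, at 17.2 and 16.1 CPM in the controls and 6.25 CPM at 12 h (log2 -1.41 ± 0.18); it was picked out after the values were seen.

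Acute phase and plasma proteins are mostly made by the liver in health. Of their 16 genes 12 rose and 1 fell, against 28.2% and 27.8% of all genes, with a median of 1.18. FGG, the gamma chain of fibrinogen, rose from 13.4 and 12.6 to 83 CPM (log2 2.68 ± 0.14, adjusted p = 0.00018), and fell back to 31.8 and 28.5 CPM at 24 and 48 h. SERPINA3-2, a protease inhibitor gene of a family of close copies, was at 0.72, 0.806 and 3.16 CPM and did not pass without control 1 (adjusted p = 0.179) or control 2 (0.168). Without control 1 or 2, 5 and 4 members were called higher.

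Immediate early genes, which cells switch on within minutes of a stimulus, went both ways. Of 24 members 12 fell and 8 rose, with a median of -0.35, against 27.8% and 28.2% of all genes. With control 1 or 2 left out, 6 were called lower in each fit and 6 and 3 higher. FOS was at 247 and 146 CPM in the controls and 14.5 CPM at 12 h (log2 -3.76 ± 0.45, adjusted p = 0.0032). EGR1 went from 239 and 185 to 19.2 CPM and NR4A1, an orphan nuclear receptor gene, from 75.5 and 63.8 to 6.36 CPM.

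FOSL1, which rises later than FOS after a stimulus, went the other way. In FOS the controls also stood further apart than in EGR1 or NR4A1. Low as these 3 genes were at 12 h, 18 of the 24 members were above both later biopsies, against 38.7% of all genes. FOS was at 11.1 and 7.61 CPM and EGR1 at 18.2 and 14.3 CPM at 24 and 48 h. NR4A1 was not above both, with 7.23 and 5.54 CPM at 24 and 48 h.

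Of 24 NF-kB targets and cytokine genes 14 rose and 4 fell, against 28.2% and 27.8% of all genes, with a median of 0.63. CSF1, the growth factor of macrophages, rose from 10.8 and 8.19 to 62.8 CPM (log2 2.73 ± 0.18, adjusted p = 0.000249). LIF, a cytokine of the interleukin 6 family, rose from 0.921 and 0.614 to 6.11 CPM. IL11 and IL6 were rare, at 1.4 and 1.49 CPM at 12 h against at most 0.201 CPM in a control. They did not pass without control 1 (adjusted p = 0.0764 for IL11 and 0.0704 for IL6) or control 2 (0.0978 and 0.0854), and 6 and 4 members were called higher without control 1 or 2.

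Genes of the interferon gamma response and antigen presentation were higher in 11 of 17 cases and lower in 1, with a median of 1.42. Over all genes 28.2% were higher and 27.8% lower. CXCL10, a chemokine that draws T cells, rose from 6.36 and 5.22 to 63.4 CPM (log2 3.45 ± 0.16, adjusted p = 0.000124). CXCL11, of the same family, rose from 0.268 and 0.422 to 8.43 CPM, and PSMB10, an immunoproteasome subunit gene, from 12.9 and 13.9 to 49.3 CPM. CXCL9 rose from 2.83 and 2.63 to 15.3 CPM and, unlike CXCL10, stood higher at 24 and 48 h, at 39.5 and 41.6 CPM.

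The human table moved with this list. Per 100 pig-table counts over the members in both tables, it held 8.86 in control 1, 6.73 in control 2 and 26.5 at 12 h. For CXCL10 the human table held 12 and 4 counts in the controls and 1798 at 12 h, against 380, 272 and 4584 in the pig table. A read that matches both genomes may be counted in either table, and the part of recipient RNA in the pig-table rise was not tested.

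The type I interferon response had 9 of 19 genes higher and 2 lower, against 28.2% and 27.8% of all genes, with a median of 0.51. ISG15, a ubiquitin-like modifier, rose from 4.02 and 4.43 to 27.6 CPM (log2 2.71 ± 0.17, adjusted p = 0.000222). IFIT5 and MX1, antiviral effector genes, were at least 2.51-fold above each control, with 87.9 and 27.7 CPM at 12 h. USP18, which removes ISG15 from proteins, was at 1.87, 1.86 and 4.46 CPM but did not pass without control 1 (adjusted p = 0.158) or control 2 (0.171). With control 1 or 2 left out, 4 and 3 members were called higher.

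Of 18 glucocorticoid receptor targets 12 rose and 4 fell, with a median of 0.80, and 6 and 7 were called higher without control 1 or 2. The shares of all genes in the first fit were 28.2% higher and 27.8% lower. ZBTB16, a transcription factor strongly induced by glucocorticoids, rose from 8.62 and 7.27 to 53.4 CPM (log2 2.75 ± 0.32, adjusted p = 0.00207). DDIT4, an inhibitor of mTORC1, rose from 27.1 and 27.8 to 138 CPM, CEBPB from 8.64 and 7.16 to 39.9 CPM, and SLC38A2, an amino acid transporter gene, from 79.9 and 63.1 to 349.7 CPM. Members also respond to other signals, so the list does not measure the hormone itself. KLF15, another receptor target, fell from 79.1 and 76.9 to 34.5 CPM and was chosen after its value was seen.

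Among 16 clock genes 4 rose and 5 fell, close to the shares over all genes (28.2% and 27.8%), with a median of -0.11, and the hour of day of the biopsies is not given. NR1D1, a repressor in the clock's feedback loop, fell from 35.3 and 38.5 to 3.87 CPM (log2 -3.25 ± 0.19, adjusted p = 0.000187), and DBP, a transcription factor driven by the clock, from 12.8 and 14 to 3.34 CPM. TEF, of the same family as DBP, was 1.89-fold and 1.53-fold below the controls and did not pass without control 1 (adjusted p = 0.072). CIART was at 2.51, 2.25 and 4.55 CPM and did not pass in the joined fit (adjusted p = 0.0607) or without control 1 (0.194) or control 2 (0.267). Once control 1 or 2 was removed, 2 and 3 members were called lower and 0 higher in each fit.

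Stress programmes were uneven. Hypoxia and glycolysis genes were higher in 9 of 21 members and lower in 4, against 28.2% and 27.8% of all genes, with a median of 0.33. HK2, the inducible hexokinase that starts glycolysis, rose from 0.82 and 0.537 to 6.58 CPM (log2 3.27 ± 0.37, adjusted p = 0.00112). PFKFB3, which speeds glycolysis, rose from 17.4 and 15.3 to 90.6 CPM. CA9, a carbonic anhydrase gene induced by low oxygen, was at 7.37, 8.18 and 28.9 CPM and did not pass without control 1 (adjusted p = 0.0921) or control 2 (0.0889). Among the members that fell, chosen after the values were seen, BNIP3, a gene of mitophagy, went from 226 and 288 to 86.6 CPM (adjusted p = 0.00214). VEGFA was at 118, 112 and 81.7 CPM and NDRG1 at 1000, 1072 and 647 CPM, and neither passed the joined fit (adjusted p = 0.0748 and 0.0575). Without control 1 or 2, 4 and 3 members were called higher and 1 lower in each fit.

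The p53 list had 4 of 14 members higher and 5 lower, close to the 28.2% and 27.8% of all genes, with a median of -0.17. CDKN1A, the cell cycle inhibitor p21, rose from 10.5 and 10.6 to 62.5 CPM (log2 2.57 ± 0.14, adjusted p = 0.00018), and GADD45B, a stress sensor gene, from 13.9 and 12.2 to 83 CPM. TP53INP1, which promotes p53-dependent death, fell from 476 and 497 to 52.7 CPM (log2 -3.21 ± 0.22), and TP53I3, an oxidoreductase gene, from 55.9 and 72.9 to 13.4 CPM. With control 1 or 2 left out, 3 members were called in each direction.

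Unfolded protein and amino acid stress genes were likewise divided, with 9 of 19 higher and 7 lower and a median of 0.37. Over all genes 28.2% were higher and 27.8% lower. TRIB3, a pseudokinase induced by ATF4, rose from 1.09 and 0.787 to 12.7 CPM (log2 3.76 ± 0.30, adjusted p = 0.000364), and ATF4 itself, the transcription factor of this response, from 92.4 and 89.1 to 289.7 CPM. The 2 chains of the amino acid exchanger LAT1 went opposite ways. SLC7A5, its transporting chain, rose from 10.2 and 10.5 to 34.4 CPM, while SLC3A2, the shared heavy chain, fell from 556 and 677 to 111 CPM. Once control 1 or 2 was removed, 4 and 5 members were called higher and 3 and 1 lower.

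Heat shock genes numbered 8 higher and 3 lower of 13, against 28.2% and 27.8% of all genes, with a median of 0.53. No member was called with either control left out. CRYAB, a small heat shock protein gene, was at 60.8, 61.4 and 144 CPM (log2 1.24 ± 0.20), with adjusted p = 0.0584 without control 1 and 0.0636 without control 2. HSPH1, HSP90AB1 and HSPA8, genes of cytosolic chaperones, were between 1.92-fold and 2.23-fold above the controls.

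Genes of oxidative stress that the transcription factor NRF2 controls rose at 12 h. Of 19 members 14 rose and 1 fell, against 28.2% and 27.8% of all genes, with a median of 1.13. At 12 h 16 of the 19 were above both later biopsies, against 38.7% of all genes. SRXN1, which repairs oxidised peroxiredoxins, rose from 19.3 and 18.3 to 133 CPM (log2 2.82 ± 0.13, adjusted p = 0.000124). NQO1, a quinone reductase gene, rose from 14 and 14.9 to 86.1 CPM, and OSGIN1 from 5.16 and 5.89 to 33.1 CPM. The fall afterwards was visible in SRXN1 at 66.4 and 59.5 CPM and in NQO1 at 52.9 and 33 CPM at 24 and 48 h.

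ABCC3, an export pump gene on the same list, rose from 6.56 and 5.55 to 37 CPM and did not fall in order, with 27.2 and 39.5 CPM later. Without control 1 or 2, 7 and 6 members were called higher. The member that fell was FTL, the ferritin light chain gene, at 11291, 14912 and 7640 CPM, which passed neither the joined fit (adjusted p = 0.195) nor those without control 1 (0.312) or control 2 (0.55).

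Ribosome biogenesis genes, which make and assemble the parts of ribosomes in the nucleolus, rose together. Of 27 members 26 rose and 1 fell, against 28.2% and 27.8% of all genes, with a median of 1.15. All 27 were above both later biopsies, against 38.7% of all genes. The joined fit called 26 higher, the fit without control 1 called 19 and that without control 2 called 17. GNL3, the nucleolar protein nucleostemin, rose from 24.8 and 26.1 to 86 CPM (log2 1.76 ± 0.15, adjusted p = 0.000485) and stood at 41.1 and 50.1 CPM later.

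DKC1, the enzyme that modifies ribosomal RNA by pseudouridine, rose from 29.6 and 32.4 to 91.4 CPM, and DDX21, a nucleolar RNA helicase gene, from 85.8 and 77.5 to 234 CPM. LYAR, a nucleolar protein gene, rose from 4.49 and 4.24 to 12.1 CPM but did not pass without control 2 (adjusted p = 0.0518). POLR1A, the large subunit of RNA polymerase I, fell from 50.3 and 49 to 32.7 CPM (log2 -0.60 ± 0.13), and did not pass without control 1 (adjusted p = 0.0763) or control 2 (0.0762).

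Cholesterol synthesis and uptake genes had 6 of 20 members higher and 7 lower, near the 28.2% and 27.8% over all genes, and a median of 0.09. SQLE, a rate-limiting enzyme of the pathway, rose from 21.2 and 20.9 to 44.2 CPM (log2 1.07 ± 0.16, adjusted p = 0.00267). FDFT1, the first committed enzyme of sterol synthesis, fell from 118 and 127 to 63.8 CPM but did not pass without control 2 (adjusted p = 0.0576). With control 1 or 2 left out, 2 members were called higher in each fit, and 2 and 1 lower.

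Genes of endothelial activation and coagulation rose, where 28.2% of all genes were called higher and 27.8% lower. Of 17 activation and coagulation genes 15 rose and 1 fell, with a median of 1.93, and 11 and 10 were called higher without control 1 or 2. PROCR, the receptor of anticoagulant protein C, rose from 1.32 and 1.34 to 13.2 CPM (log2 3.31 ± 0.42, adjusted p = 0.00256), and SELP, the adhesion receptor P-selectin, from 0.887 and 0.652 to 8.22 CPM.

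The highest values of these genes were not all at 12 h. F13A1, described above, was highest in the first biopsy, while PROCR and SELP peaked at 24 h, at 24.6 and 11.6 CPM. F3, encoding tissue factor, was the member that fell, at 13.1, 11.3 and 7.55 CPM, and it did not pass the joined fit (adjusted p = 0.0618) or the fits without control 1 (0.257) or control 2 (0.163).

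Genes that mark endothelial cells were higher in 11 of 16 cases and lower in 1, against 28.2% and 27.8% of all genes. Their median was 0.57. CDH5, the junction cadherin of endothelium, rose from 35.8 and 26.8 to 134 CPM (log2 2.10 ± 0.18, adjusted p = 0.000482). PECAM1 rose from 116 and 89.7 to 358 CPM, ESAM from 13.6 and 12.8 to 37.9 CPM, and CLDN5 from 8.52 and 6.28 to 21 CPM, with CLDN5 not called without control 2 (adjusted p = 0.0659). EMCN, a sialomucin of capillary endothelium, was the member that fell, at 73.8, 59.4 and 46.5 CPM, with an adjusted p of 0.072 in the joined fit, 0.286 without control 1 and 0.107 without control 2. Once control 1 or 2 was removed, 4 and 3 members were called higher.

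Leukocyte genes of the pig table split by cell type. Myeloid genes were higher in 10 of 18 cases and lower in 3, against 28.2% and 27.8% of all genes. Their median was 1.44, though the median over members on log2(CPM + 0.1) was 0.91 against control 1 and 0.77 against control 2. CD163, a scavenger receptor of macrophages, rose from 13.2 and 14.5 to 183 CPM (log2 3.72 ± 0.14, adjusted p = 0.000103). CD68 rose from 3.5 and 3.91 to 27.8 CPM and CD14 from 3.6 and 4.09 to 26.6 CPM. The myeloid genes CSF1R and ITGAM stayed near the controls, at 21.7, 24.6 and 24.9 CPM and at 8.72, 9.73 and 9.6 CPM. AIF1 (log2 -1.46) and CCR2 (log2 -1.30) fell, as did CX3CR1, named above. The common leukocyte gene PTPRC was lower than in either control, at 19.2, 20.4 and 12.8 CPM. Without control 1 or 2, 6 and 7 members were called higher.

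Of 18 T and NK cell genes 9 fell and 2 rose, against 27.8% and 28.2% of all genes, with a median of -1.07. Few members were called lower with a control left out. GNLY, the cytotoxic protein granulysin, went from 8.67 and 11.3 to 0.539 CPM (log2 -4.21 ± 0.57, adjusted p = 0.0021). KLRK1, an activating receptor of NK cells, was at 1.81, 2.15 and 0.276 CPM and did not pass without control 2 (adjusted p = 0.0582). CD4 was at 1.19, 0.96 and 0.124 CPM and passed neither without control 1 (adjusted p = 0.0684) nor without control 2 (0.0608). NKG7, a granule protein gene, rose from 2.41 and 3.44 to 9.58 CPM.

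The human table moved in the opposite direction for several of these genes. Over the 19 T and NK genes in both tables, it held 75 and 38 counts in the controls and 1757 at 12 h, while the pig table held 2366, 2221 and 1744. CD4 had 71, 50 and 9 pig-table counts but 1, 0 and 306 human-table counts, and GNLY had 518, 591 and 39 against 0, 0 and 179. CX3CR1, a receptor of patrolling monocytes and NK cells, had 182, 172 and 8 pig-table counts against 8, 3 and 122.

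Per 100 pig-table counts over the 19 myeloid genes, the human table held 12.7 in control 1, 11.7 in control 2 and 102 at 12 h. CD163, for comparison, had 202 and 180 human-table counts in the controls and 9550 at 12 h, against 791, 754 and 13248 in the pig table. Over the whole tables the ratio was 22.8, 18.8 and 31.2 per 100, and over proximal tubule genes 19.2, 18.1 and 23.4. The part of human leukocytes in the pig-table values of leukocyte genes was not tested, and the human-table examples were chosen after their values were seen.

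**Figure D4:**
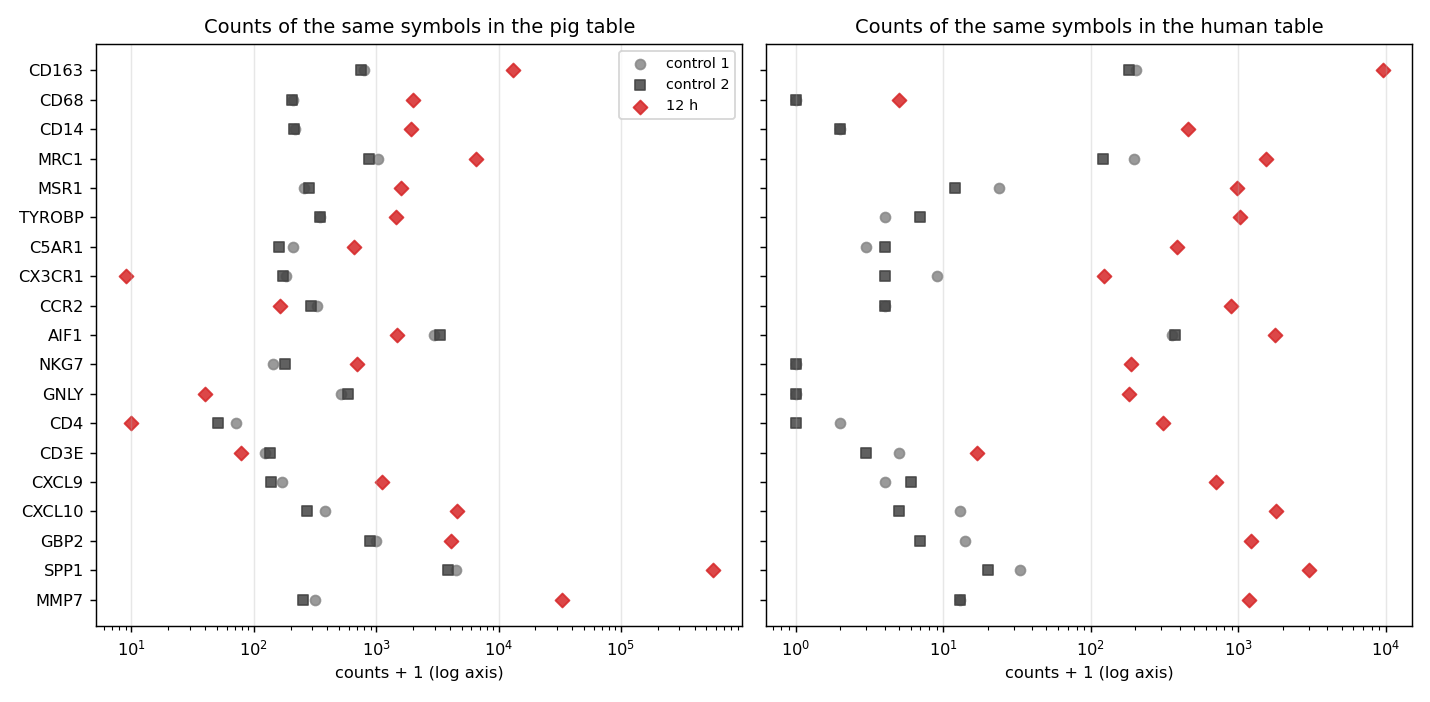
Counts + 1 on a log axis are given for 19 gene symbols in the pig table (left) and in the human table (right), in control 1, control 2 and the 12 h biopsy. CD4 and GNLY move to the left at 12 h in the pig table, to 9 and 39 counts, and to the right in the human table, to 306 and 179 counts.

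Of 9 complement genes 6 rose and 2 fell, against 28.2% and 27.8% of all genes, with a median of 0.36. The joined fit called 2 of the 9 higher and 1 lower, against 2467 and 2503 of all 12857 genes. C5AR1, a receptor for the anaphylatoxin of complement, rose from 3.5 and 3.05 to 9.16 CPM (log2 1.48 ± 0.24, adjusted p = 0.00399), and did not pass without control 2 (0.0613). For C5AR1 the human table held 2, 3 and 385 counts in control 1, control 2 and the 12 h biopsy, against 209, 159 and 663 in the pig table. The part of recipient RNA in its rise was not tested. C4A, a component of the classical pathway, fell from 252 and 281 to 109 CPM (log2 -1.29 ± 0.17, adjusted p = 0.00188). The alternative pathway protease gene CFD was at 19.3 and 20.1 CPM in the controls, 10.05 CPM at 12 h and 34.6 CPM at 48 h, and the classical pathway gene C2 at 4.59, 4.18, 7.75 and 38.5 CPM. Neither CFD nor C2 passed the joined fit (adjusted p = 0.112 and 0.207), the fit without control 1 (0.229 and 0.336) or that without control 2 (0.267 and 0.417). The human table held 7.88, 4.9 and 15.7 counts per 100 pig-table counts over the list, and without control 1 or 2, 1 and 0 members were called higher.

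Of 19 matrix and fibroblast genes 15 rose and 0 fell, against 28.2% and 27.8% of all genes. The joined fit called 6 of the 19 higher, against 2467 of all 12857 genes. The list's median of 0.66 was 0.43 against control 1 and 0.97 against control 2. TNC, the matrix protein tenascin C of wound repair, rose from 5.44 and 3.11 to 31.3 CPM (log2 2.87 ± 0.41, adjusted p = 0.00517). LOX, an enzyme that crosslinks collagen, rose from 24.2 and 13.9 to 58.3 CPM. COL4A2, a basement membrane collagen gene, and SERPINH1, a collagen chaperone gene, were at least 2.17-fold above each control, but did not pass without control 2 (adjusted p = 0.0519 and 0.0544). With control 1 or 2 left out, 5 and 2 members were called higher, and 13 of 19 were below both later biopsies.

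Of 20 cell cycle genes 12 rose and 1 fell, against 28.2% and 27.8% of all genes, with a median of 0.85. The joined fit called 7 of the 20 higher and 0 lower, against 2467 and 2503 of all 12857 genes. No member was called with either control left out. Those fits take their spread from 24 and 48 h, between which the list's median went from 1.61 to 3.67, relative to the controls. MCM2, MCM4 and MCM5 encode subunits of the replicative helicase, and CDC6 helps to load it. MCM2 was at 5.62, 4.68 and 17.7 CPM, MCM4 at 5.17, 4.95 and 18.1 CPM, MCM5 at 3.73, 3.95 and 14 CPM and CDC6 at 0.469, 0.48 and 1.99 CPM. Genes of mitosis, chosen after their values were seen, went different ways. TOP2A was at 2.9, 1.67 and 2.2 CPM and CCNB2 at 0.804, 0.883 and 0.276 CPM, while BUB1 was at 0.419, 0.499 and 1.41 CPM and CDK1 at 1.22, 0.614 and 1.58 CPM; these 4 did not pass the joined fit (adjusted p = 0.978, 0.501, 0.273 and 0.704). By 48 h TOP2A was at 71.3 CPM and CDK1 at 32.7 CPM, and 18 of the 20 members were below both later biopsies at 12 h.

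What set the first biopsy apart from the later ones was tested by comparing 12 h with 24 and 48 h as 1 group. Only 24 genes (0.187%) were higher and 39 (0.303%) lower, together 0.490% of those tested, with 2412 genes at an unadjusted p under 0.05. These calls lean on the control pair for their spread. With the 3 biopsies alone, or without control 1 or control 2, 0 genes were called in either direction by edgeR (1493, 1522 and 1534 genes at an unadjusted p under 0.05), while DESeq2's Wald test called 317 higher and 553 lower. The values of each library therefore carry the account that follows.

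NAMPT, the enzyme that makes the precursor of NAD, was at 133 and 142 CPM in the controls, 729 CPM at 12 h and 188 and 151 CPM at 24 and 48 h. It was 3.87-fold above 24 h and 4.84-fold above 48 h (log2 2.11 ± 0.18, adjusted p = 0.0256 in this comparison). NETO2, a membrane protein gene, ran 1.14, 1.27, 18.2, 3.7 and 2.9 CPM in the same order. Both peaked at 12 h, and NAMPT was near its control values again by 48 h.

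UCP3, a mitochondrial carrier of muscle and brown fat, was rare, at 3.83 CPM at 12 h and at most 0.275 CPM in any other library. ZFAND2A, induced by arsenite and misfolded protein, ran 4, 3.95, 32, 9.98 and 7.26 CPM from control 1 to 48 h, and SLPI, a secreted protease inhibitor of epithelia, 9.76, 9.37, 86.4, 28.5 and 17.8 CPM. GBP2, a guanylate-binding protein gene induced by interferon gamma, ran 16.6, 17.1, 56.4, 19.5 and 19.4 CPM. GBP2 thus peaked at 12 h in the pig table where CXCL9 did not. Its human-table counts were 13 and 6 in the controls and 1207, 845 and 2349 at 12, 24 and 48 h, highest in the last biopsy.

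NPM3, a nucleolar chaperone gene, ran 3.4, 3.72, 90.5, 24.5 and 30.9 CPM, and ACKR2, a decoy receptor that clears chemokines, 3.18, 2.09, 61.3, 18.8 and 21.5 CPM. BNIP5 ran 0.904, 0.844, 8.67, 2.12 and 2.2 CPM. FGG, named above, completed the 10 genes furthest above the nearer later biopsy. HMOX1, which degrades haem, was at 92.7, 105, 169, 70.7 and 60.4 CPM (log2 1.37 ± 0.16 against the later biopsies, adjusted p = 0.0286), and was chosen after its values were seen.

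SELENBP1 and FABP5 were among the 10 genes furthest below the nearer later biopsy. SELENBP1, a selenium-binding protein gene that oxidises methanethiol, ran 31.6, 34.8, 21.9, 113 and 114 CPM from control 1 to 48 h (log2 -2.37 ± 0.15 against the later biopsies, adjusted p = 0.0156). FABP5, a fatty acid carrier gene, ran 91.4, 83.7, 72.4, 270.2 and 304 CPM. These 2 genes rose past the controls, while their 12 h value was within 1.59-fold of either control.

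HNF4G, a transcription factor of the proximal tubule and gut, ran 65.9, 69.97, 12.1, 53.7 and 46.2 CPM. CD36, a fatty acid receptor, ran 42.4, 31.7, 12.1, 70.1 and 56.9 CPM, and ABCA6, a lipid transporter gene, 30.2, 21.2, 5.89, 30.6 and 35.6 CPM. IGSF10 ran 67.3, 43.5, 14.3, 70.4 and 85.7 CPM. In CD36, ABCA6 and IGSF10 the later biopsies were at or above control 1, and the 12 h biopsy was the 1 library below both controls.

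GPRC6A, an amino acid-sensing receptor gene, ran 7.03, 5.16, 0.884, 5.39 and 8.37 CPM. PGC ran 25, 30.1, 3.75, 14.8 and 16.1 CPM and PLET1 16.3, 17.5, 2.1, 8.5 and 8.81 CPM, both still below the controls at 48 h. EFCC1 ran 3.75, 3.55, 0.995, 4.76 and 5.02 CPM.

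By list, the 12 h value was above both later biopsies in 27 of 27 ribosome biogenesis and 16 of 19 NRF2 genes, against 38.7% of all genes. It was below both in 18 of 20 cell cycle, 17 of 20 cholesterol and 23 of 26 nuclear respiratory chain genes, against 38.2%. These are positions and not calls: 2 NRF2 genes and 0 members of the other 4 lists passed the test against the later biopsies. The medians in ribosome biogenesis, relative to the mean of the controls on log2(CPM + 0.1), were 1.15 at 12 h and 0.53 and 0.63 at 24 and 48 h. In cholesterol genes they were 0.09, 0.71 and 0.35, and in heat shock genes 0.53, 0.04 and -0.12. In tubular injury genes they were 2.41, 1.86 and 2.44, so that 12 h did not stand apart in that list.

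**Figure D5:**
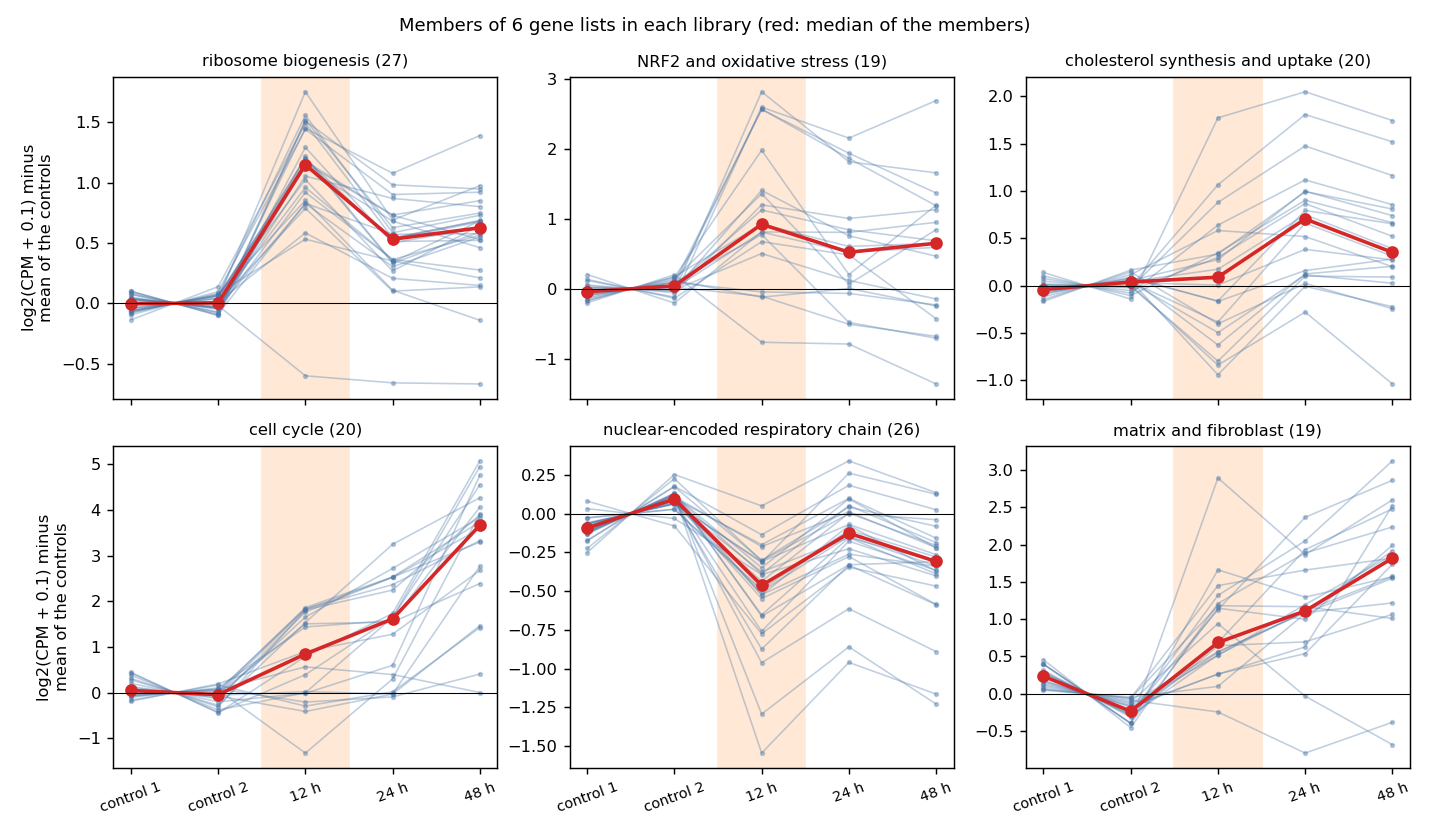
For 6 gene lists, log2(CPM + 0.1) of each member minus its mean over the controls is drawn in control 1, control 2 and at 12, 24 and 48 h, with the median of the members in red and the 12 h library shaded. The ribosome biogenesis median is highest at 12 h, at 1.15, while the cell cycle median goes from 0.84 at 12 h to 1.61 and 3.67.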

How the data were processed

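The authors deposited raw counts per gene symbol, in a pig table and a human table (build hg38 per the submitters' processing notes); the deposited counts were whole numbers, with no normalization left in them. The aligner, counting tool, strand setting and annotation are not given in the sources used here, and genes without strand information may share reads with overlapping or near-identical genes. No chromosome positions or sequences are printed, since the tables hold symbols alone. The human table was used only for values beside pig-table results.

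The analysis used edgeR 4.0.16 in R 4.3.3 (TMM; filterByExpr at its minimums, a count of 10 and a total of 15; robust quasi-likelihood test; Benjamini-Hochberg adjustment over all 12857 genes; threshold 0.05) and, as an alternative, DESeq2 1.42.0. The first fit had 1 coefficient per time and 1 residual degree of freedom, and the comparison with the later biopsies had 2. In the first fit edgeR shrank every gene's spread to the common trend, so its p-values and SEs rest on that trend and may be too small, and they are not printed. Each SE was obtained as the size of the log2 fold change over the root of the F statistic.

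Genes named against the controls were called, had a mean of at least 1 CPM and a symbol, lay outside both controls and were ranked by log2(CPM + 0.1) against the nearer control (15 each way), with the same rule for the later biopsies (10 each way) and up to 4 per list. List members that moved against their list were named after their values were seen. The members and the 33 lists (668 members, 571 in the table, 554 tested) were chosen with earlier results of these data known. On simulated data the comparison with the controls recovered 91% of 2-fold and 100% of 4-fold changes over 12546 genes, with 10 false of 201 calls. The comparison with the later biopsies recovered 70% and 94% over 12670 genes, with 9 false of 173 calls. Both simulations drew every gene at the fitted trend of spread and gave unchanged genes the same mean in all libraries. They thus obeyed the assumptions of the fit and cannot show how often calls in the real libraries are false. Some genes that the rule names are not reported here.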

Additional observations from a re-analysis of the deposited data

Results flagged for a closer look

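These genes were called different between the 12 h biopsy and the later biopsies by the test of that difference, with a single 12 h library. With the 12, 24 and 48 h libraries alone, or with a control left out, edgeR called no gene. A different change at each time thus rests on the spread of the control pair. Values are log2 differences, 12 h minus 24 and 48 h. Higher at 12 h were UCP3 (4.31), NETO2 (2.47), NAMPT (2.11), BNIP5 (2.00), SLPI (1.90), ZFAND2A (1.89), NPM3 (1.71), ACKR2 (1.60), GBP2 (1.53), FGG (1.46), GADD45B (1.41), TIMP1 (1.20) and SRXN1 (1.08). Lower at 12 h were GPRC6A (-2.96), ABCA6 (-2.49), IGSF10 (-2.45), CD36 (-2.39), SELENBP1 (-2.37), EFCC1 (-2.29), PGC (-2.05), HNF4G (-2.05), PLET1 (-2.04), FABP5 (-1.99), PLPPR1 (-1.71), CXCL9 (-1.40) and NR1D1 (-1.22).

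The human table, which enters none of the tests and stands in the report only as counts beside pig-table results, held 31.2 counts per 100 pig-table counts at 12 h, above the 22.8 and 18.8 of the controls.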

How the results depend on the processing

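Against the controls, 974 genes were higher and 1130 lower with control replicate 1 left out, and 756 and 849 with control replicate 2 left out. DESeq2 size factors, the absence of a filter, removal of mitochondrially encoded genes, the 3 libraries alone, the joined fit and DESeq2's test each kept both counts within 1.5 times the reported ones. Against the later biopsies the counts of 24 higher and 39 lower became 49 and 77 with no filter on low counts, 317 and 553 with DESeq2's test, and 0 and 0 with the 12, 24 and 48 h libraries only. They were 1084 and 1759 without the 24 h biopsy, 618 and 1009 without the 48 h biopsy, and 0 and 0 without either control. With the 24 h or 48 h biopsy left out, the spread rests on the control pair, and each lone biopsy is assumed to vary like those libraries. With a control left out, the spread rests on the 24 and 48 h pair alone. No named gene changed direction under these alternatives; the only list median to change sign was that of B and plasma cell genes, from -0.30 to 0.07 without control replicate 1. The causes were not tested. No paired analysis was possible because the labels number only the control replicates and each xenograft time has 1 library.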

Other observations

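Genes of motile cilia, the beating projections of airway and reproductive tract cells, fell in 5 of 13 members and rose in 1, against 27.8% and 28.2% of all genes, with a median log2 fold change of -0.83. On log2(CPM + 0.1) the median was -0.89 against control 1 and -0.32 against control 2. The joined fit called 3 of the 13 lower and 0 higher, against 2503 and 2467 of all 12857 genes. CCDC60 was at 75.2 and 93.5 CPM in the controls and 5.32 CPM at 12 h, and the axonemal dynein gene DNAH5 at 27.4, 28.8 and 2.65 CPM. The dynein gene DNAH11 was at 3.11, 2.53 and 0.373 CPM and stood at 1.37 and 1.91 CPM at 24 and 48 h. The member that rose was FOXJ1, the transcription factor of ciliated cells, at 4.89, 2.92 and 7.06 CPM (edgeR adjusted p = 0.0772 in the joined fit), and CCDC40 was at 0.519, 0.48 and 0.912 CPM without a call; DNAH9 was at 1.66, 1.3 and 1.42 CPM and CCDC39 at 3.15, 3.01 and 2.71 CPM.

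Of 5 adipose and skeletal muscle genes tested 4 fell, against 27.8% of all genes, with the lipid droplet gene PLIN4 at 45.4, 52 and 10.7 CPM. Fewer were called lower with a control left out. Of 3 red cell and platelet genes 1 rose, against 28.2% of all genes. This was HBB, from 0.201 and 0.249 to 1.52 CPM. Its human-table counts were 26, 16 and 4964 in control 1, control 2 and the 12 h biopsy, against 12, 13 and 110 in the pig table, and HBB did not pass without control 1 (edgeR adjusted p = 0.0562) or control 2 (0.0528). Of 6 B and plasma cell genes 2 rose and 1 fell, against 28.2% and 27.8% of all genes. TNFRSF17, a plasma cell receptor gene, was at 2.31, 2.97 and 6.98 CPM and did not pass with either control left out. CD79A, the other that rose, was at 356, 403 and 532 CPM and did not pass the joined fit (edgeR adjusted p = 0.104). It had 0, 0 and 3 human-table counts, and the B cell gene CD79B was at 0.0502, 0.0576 and 0.0276 CPM. The source of the CD79A counts was not tested.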
